A study of Mus musculus with 119 samples.

Results

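Satellite cells, the stem cells of skeletal muscle, were compared between geriatric and young wild-type mice within the fraction that carried the most CD34 on its surface (CD34Hi). The comparison used 8 of the 119 RNA-seq samples of the series, chosen by their labels: 4 libraries of geriatric CD34Hi cells against 4 libraries of young CD34Hi cells, sequenced in the same experiment. Both groups were wild type and came from resting muscle that had been neither injured nor treated, and RNA was taken straight after the sort, with no culture. The cells had been negative for CD45, CD31 and Sca-1, which mark blood, endothelial and mesenchymal cells, and positive for α7-integrin and CD34. The labels name the age classes but give no age in days, and they do not say whether each library came from its own animal, so a p-value speaks only of the spread among these libraries. Transcripts were amplified with the SMART-Seq v4 kit from very little RNA or few cells and made into libraries with Nextera XT, a method that does not mark strand. Genes of chromosomes X and Y are left out of every count and list, and only Xist and Ddx3y are given, to describe the libraries.

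Satellite cells lie between the myofibre and its basal lamina and stay out of the cell cycle until muscle is damaged. Quiescence is held by Notch signalling, by inhibitors of growth factor signalling such as Sprouty 1, and by FoxO transcription factors. Interferons signal through the kinases Jak1, Jak2 and Tyk2 to Stat factors such as Stat2, which with Irf9 bind a response element before antiviral genes and raise the machinery that loads peptides on MHC class I. Ageing muscle is known for fewer satellite cells and for a raised inflammatory signal around them.

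Libraries held 6657194 to 12012354 counts in geriatric cells and 6272928 to 13287838 in young cells. They detected 12978 to 13811 gene symbols in geriatric cells and 13055 to 14009 in young cells. Geriatric libraries were less alike: their pairwise Pearson correlations over log2(CPM + 1) ran from 0.838 to 0.906, against 0.963 to 0.973 between young libraries (CPM, counts divided by the scaled library size and expressed per 1000000). The 50 most abundant genes took 23.3% to 30.5% of the counts in geriatric libraries and 17.2% to 18.3% in young libraries. Xist, the RNA that coats the inactive X chromosome, was at 440.5 and 418.1 CPM in geriatric replicates 3 and 4, under 1 CPM in geriatric replicates 1 and 2 and at most 2.76 CPM in young libraries. Geriatric replicate 4 held the Y-linked Ddx3y at 171.5 CPM as well. The age comparison was therefore also made without every library of the experiment with Xist at 50 CPM or more, which left geriatric replicates 1 and 2.

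Of 11710 autosomal genes tested, 1544 were higher (13.2%) and 1207 lower (10.3%) in geriatric cells at an adjusted p under 0.05 with edgeR's quasi-likelihood test. The 2 groups did not overlap for 1261 of the genes called higher and 1150 of those called lower. Over all genes tested, called or not, they did not overlap for 14.1% with geriatric cells higher and for 17.4% with geriatric cells lower. The median log2 fold change of all genes tested was 0.02. Without young replicate 2 the counts were 1016 and 746, and without young replicate 3 or 4 the lower genes numbered 804 and 792. Without the libraries with high Xist they were 2274 and 2620. In bulk samples, fewer cells of a type and less RNA per cell cannot be told apart.

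**Figure D1:**
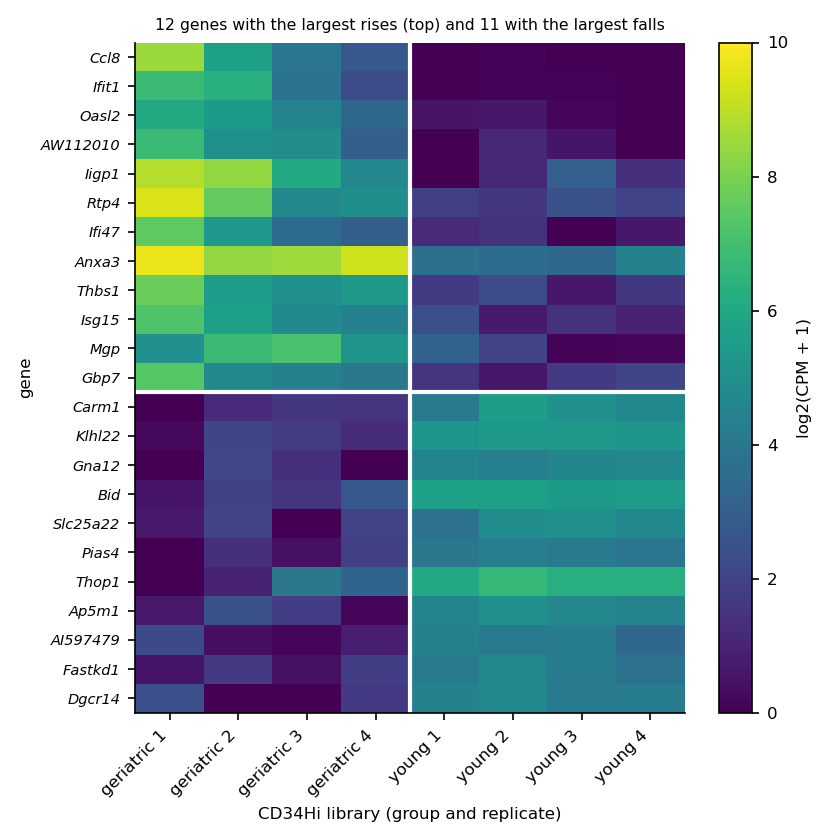
Level of the 12 genes with the largest rises and 11 of those with the largest falls in each CD34Hi library, as log2(CPM + 1) by colour; genes run down the page and libraries across it, geriatric left of young. Most of the rises were brightest in geriatric replicates 1 and 2, and the falls were dark in all 4 geriatric libraries.

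Among the genes with at least 8 CPM on average and no overlap between groups, the 12 largest rises were Ccl8, Ifit1, Oasl2, AW112010, Iigp1, Rtp4, Ifi47, Anxa3, Thbs1, Isg15, Mgp and Gbp7. Rtp4, an interferon-induced chaperone of membrane receptors (chr16:23520291-23614222), had 699, 193, 24.9 and 30.7 CPM in geriatric cells, against 2.72, 2.004, 4.63 and 3.07 CPM in young cells. All 4 geriatric libraries lay above the young range, replicates 1 and 2 far above it (log2 fold change 6.24 ± 1.203, edgeR adjusted p = 0.00205). Anxa3, an annexin that binds phospholipids in a calcium-dependent way (chr5:96793339-96845966), had 825.5, 329.9, 372.5 and 618 CPM in geriatric cells, against 11.8, 10.7, 9.19 and 20.3 CPM in young cells. Its rise had a similar size in each geriatric library, with no library standing apart (log2 fold change 5.37 ± 0.65, edgeR adjusted p = 0.000327). Thbs1, thrombospondin 1, a secreted matrix glycoprotein, had 212, 44.7, 31.6 and 40.6 CPM in geriatric cells, against 2.27, 3.86, 0.553 and 2.08 CPM in young cells. Geriatric replicate 1 was the highest, and the lowest geriatric value was still over the highest young value (log2 fold change 5.22 ± 0.71, edgeR adjusted p = 0.000377). Mgp, the matrix Gla protein that inhibits calcification, had 32.2, 110.4, 138.5 and 35.97 CPM in geriatric cells, against 8.01, 3.08, 0.0691 and 0.110 CPM in young cells (log2 fold change 4.86 ± 1.29, edgeR adjusted p = 0.0125). Of these 12, Ifi47 lost its call without geriatric replicate 1 (edgeR adjusted p = 0.0627).

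The largest falls included Carm1, Klhl22, Gna12, Bid, Slc25a22, Pias4, Thop1, Ap5m1, AI597479, Fastkd1 and Dgcr14. Carm1, the arginine methyltransferase that acts on Pax7 in satellite cells (chr9:21546894-21592623), had 0, 1.30, 1.98 and 1.89 CPM in geriatric cells, against 16.6, 45.9, 32.1 and 24.7 CPM in young cells. No geriatric library reached 2 CPM, and the lowest young library was at 16.6 CPM (log2 fold change -4.49 ± 1.04, edgeR adjusted p = 0.00583). Bid, a pro-apoptotic BH3-only protein, had 0.469, 2.91, 1.87 and 5.66 CPM in geriatric cells, against 51.7, 50.95, 42.6 and 43.99 CPM in young cells (log2 fold change -4.09 ± 1.09, edgeR adjusted p = 0.0126). Thop1, a peptidase that breaks down cytosolic peptides including MHC class I ligands, had 0, 0.971, 14.8 and 8.25 CPM in geriatric cells, against 63.8, 101.2, 77.9 and 78.3 CPM in young cells. Geriatric replicates 1 and 2 were near 0 and replicates 3 and 4 were intermediate (log2 fold change -3.72 ± 0.96, edgeR adjusted p = 0.0106). Klhl22, a substrate adaptor of a ubiquitin ligase, was at or below 3.24 CPM in geriatric libraries and at or above 37.3 CPM in young libraries (log2 fold change -4.42 ± 0.80, edgeR adjusted p = 0.00145). AI597479 and Dgcr14 lost their calls when some libraries were left out, with edgeR adjusted p-values of up to 0.0628 and 0.0673.

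**Figure D2:**
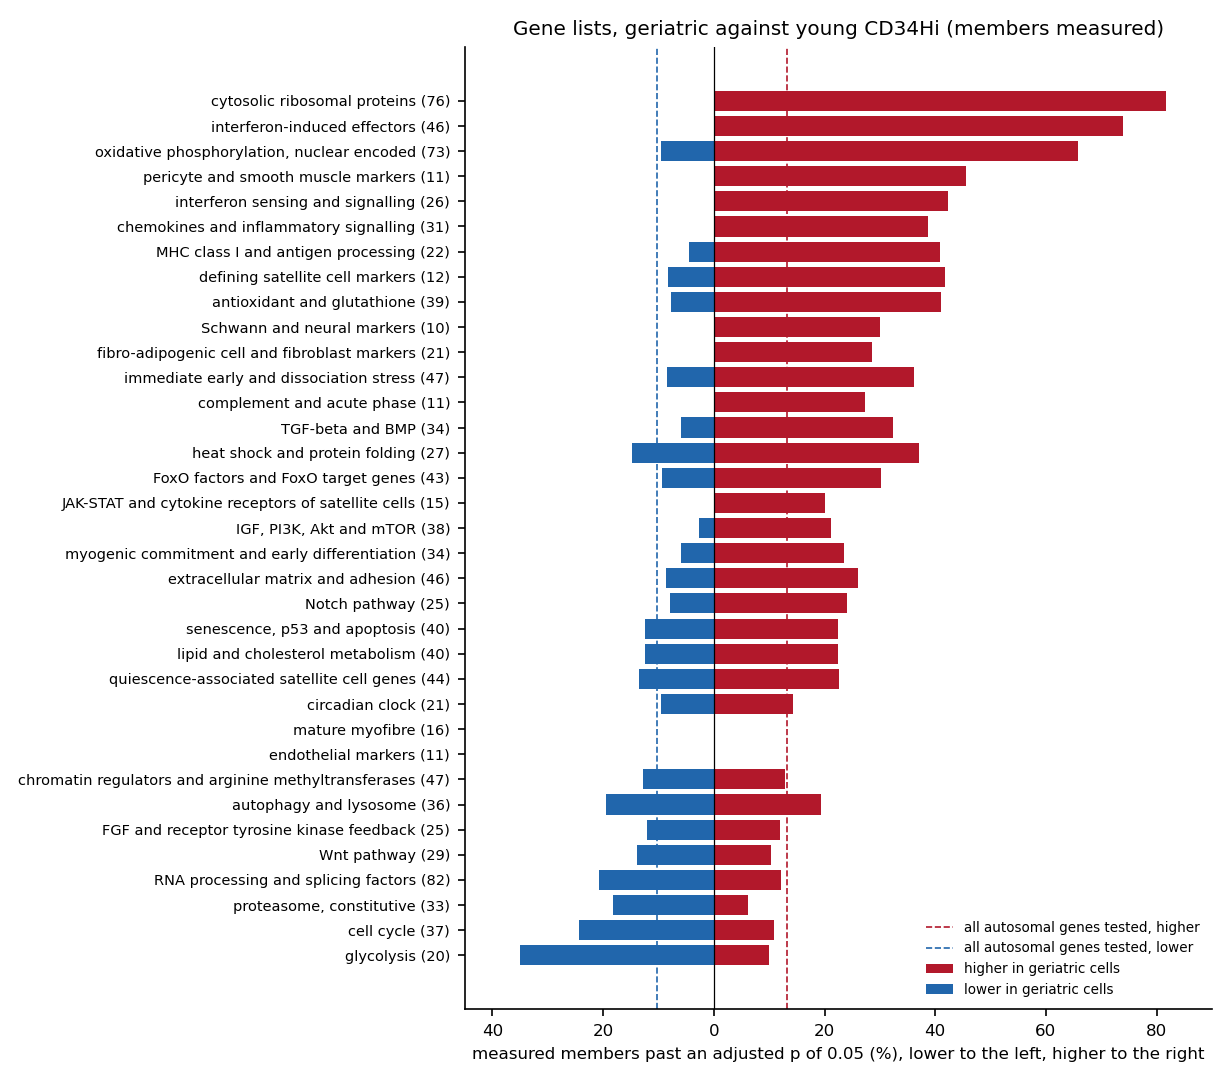
Share of the measured members of each gene list that passed an adjusted p of 0.05, higher in geriatric cells to the right and lower to the left, for lists with at least 10 measured members; dashed lines mark the shares over all autosomal genes tested, 13.2% and 10.3%. Ribosomal proteins, interferon-induced effectors and oxidative phosphorylation lie furthest right, and glycolysis furthest left.

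Counts of called list members in all that follows are to be read beside 13.2% higher and 10.3% lower over all genes tested. Without the libraries with high Xist, more than 1.5 times as many genes were called lower in several lists, among them autophagy (13 in place of 7), FoxO (9 in place of 4), heat shock (9 in place of 4), senescence (8 in place of 5) and myogenic genes (6 in place of 2). Higher calls grew as much for the Wnt pathway (7 in place of 3), the clock (6 in place of 3), JAK-STAT (6 in place of 3) and lipid genes (14 in place of 9).

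Genes that sense viral RNA and carry the interferon signal were higher in geriatric cells in 11 of 26 cases and lower in none, against 13.2% higher and 10.3% lower over all genes tested. The list's median log2 fold change was 1.09. Ifih1 (MDA5), a sensor of double-stranded RNA (chr2:62595798-62646255), had 152, 98.9, 49.8 and 4.37 CPM in geriatric cells, against 4.39, 3.94, 4.56 and 5.81 CPM in young cells. Geriatric replicates 1 to 3 were above every young library and geriatric replicate 4 lay within the young range (log2 fold change 4.03 ± 0.72, edgeR adjusted p = 0.00137). Stat2, a transcription factor of type I interferon signalling, had 65.3, 41.1, 13.6 and 16.7 CPM in geriatric cells, against 4.23, 3.44, 8.29 and 6.14 CPM in young cells, with no overlap (log2 fold change 2.62 ± 0.53, edgeR adjusted p = 0.00268). Irf7, which amplifies type I interferon production, had 40, 21.9, 20.6 and 9.14 CPM in geriatric cells, against 4.99, 6.73, 7.18 and 2.96 CPM in young cells (log2 fold change 2.06 ± 0.57, edgeR adjusted p = 0.0160). Irf9, the DNA-binding partner of Stat2, had 108, 76.1, 82.4 and 28.5 CPM in geriatric cells, against 28.7, 25.3, 28.7 and 26.3 CPM in young cells (log2 fold change 1.44 ± 0.41, edgeR adjusted p = 0.0195). Its lowest geriatric value was just under the highest young value. Without geriatric replicate 1 the count of higher members was 5, and without young replicate 1 or 4 it was 7. Irf7 and Irf9 lost their calls in some of these fits (edgeR adjusted p up to 0.0602 and 0.0659).

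The promoters of 5 genes are shown because the response elements that interferon factors bind lie in them. RefSeq promoter windows of 250 bases before to 50 bases after the start (GRCm38.p6) were searched on both strands for the interferon-stimulated response element GAAANNGAAA and the gamma-activated sequence TTCNNNGAA. The stretches below are the 150 bases before each start, 5′ to 3′ on the gene's strand, with every match to either motif in capitals.
Ifit1, chr19:34640739-34640888, + strand: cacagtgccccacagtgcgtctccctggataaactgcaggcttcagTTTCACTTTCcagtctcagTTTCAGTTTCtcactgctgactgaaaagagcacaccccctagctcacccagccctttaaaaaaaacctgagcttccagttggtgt
Isg15, chr4:156200819-156200968, - strand: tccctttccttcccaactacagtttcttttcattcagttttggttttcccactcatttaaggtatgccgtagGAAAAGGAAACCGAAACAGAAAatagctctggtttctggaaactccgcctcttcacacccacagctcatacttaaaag
Gbp7, chr3:142530186-142530335, + strand: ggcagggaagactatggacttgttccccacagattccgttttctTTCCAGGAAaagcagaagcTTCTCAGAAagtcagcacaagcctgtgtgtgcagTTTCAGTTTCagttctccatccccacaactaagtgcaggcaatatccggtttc
Igtp, chr11:58199406-58199555, + strand: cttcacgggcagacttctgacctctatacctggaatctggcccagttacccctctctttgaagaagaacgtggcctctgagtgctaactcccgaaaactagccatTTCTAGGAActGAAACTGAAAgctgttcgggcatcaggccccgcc
B2m, chr2:122147537-122147686, + strand: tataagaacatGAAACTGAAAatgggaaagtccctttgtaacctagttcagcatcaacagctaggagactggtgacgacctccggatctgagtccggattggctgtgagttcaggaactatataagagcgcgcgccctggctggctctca
The Ifit1 stretch holds 2 response elements on the other strand and the Isg15 stretch holds 3 that overlap. Gbp7 has 2 gamma-activated sequences and 1 response element, and in Igtp 1 of each stand 2 bases apart. The B2m stretch holds 1 response element. Matches overlap where capitals run on for more than 10 bases.

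A response element was found in 16 of the 28 promoters of interferon-induced effectors called higher (57.1%; 24 of these 34 genes had a promoter in the table). The share was 4.99% of 1502 promoters of all genes called higher, these effectors among them, and 2.44% of 1188 promoters of genes called lower. It was 3.02% of 11377 promoters of all genes tested and 3.46% of all 31396 autosomal promoters. The list holds genes known to be induced by interferon, so a high share partly follows from that choice. The gamma-activated sequence was found in 8 of the 28 effector promoters (28.6%), in 7.12% of promoters of genes called higher and in 6.73% of those of genes called lower. Its share was 6.78% over genes tested and 8.35% over all autosomal promoters. Oasl2 and Xaf1, both called higher, had neither motif in their windows. A match is a run of letters in a window, and nothing was measured here about factors bound to it.

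Interferon-induced effectors, the antiviral proteins that the pathway switches on, were higher in 34 of 46 measured cases and lower in none, with a median log2 fold change of 3.12. Another 14 listed genes were too low to measure. The 2 groups did not overlap for 23 of the 46, against 14.1% of all genes tested. Ifit1, which binds foreign RNA caps and whose promoter is shown above (chr19:34640871-34650009), had 110.5, 80.6, 13.1 and 3.88 CPM in geriatric cells, against 0, 0.0716, 0.0691 and 0 CPM in young cells. Young libraries held 2 counts of Ifit1 in all, so no fold is given (edgeR adjusted p = 0.00177). Isg15, a ubiquitin-like modifier, had 149.8, 50.2, 26.9 and 19.97 CPM in geriatric cells, against 4.39, 0.644, 1.73 and 0.987 CPM in young cells (log2 fold change 5.04 ± 1.02, edgeR adjusted p = 0.00265). Geriatric replicate 1 was the highest and replicate 4 the lowest, and all 4 exceeded the young libraries. Ifitm3, a membrane protein that blocks viral entry (chr7:141009586-141010770), had 10090, 3538, 5368 and 3720 CPM in geriatric cells, against 1339, 1202, 1317 and 1226 CPM in young cells, with all geriatric libraries far above the young ones (log2 fold change 2.16 ± 0.39, edgeR adjusted p = 0.00148). Iigp1, an immunity-related GTPase, had 473, 333, 67.7 and 24.6 CPM in geriatric cells, against 0, 1.15, 7.46 and 1.65 CPM in young cells (log2 fold change 6.37 ± 1.38, edgeR adjusted p = 0.00387). Igtp, the GTPase Irgm3, averaged 61.5 ± 48.2 CPM in geriatric cells and 9.59 ± 6.47 CPM in young cells (log2 fold change 2.70 ± 0.87, edgeR adjusted p = 0.0327). This call was lost without geriatric replicate 1 or 2 or young replicate 2, 3 or 4 (up to 0.0946). Gbp7, a guanylate-binding protein, had 164, 26.4, 19.4 and 14.6 CPM in geriatric cells, against 1.81, 0.573, 2.21 and 3.29 CPM in young cells (log2 fold change 4.83 ± 1.07, edgeR adjusted p = 0.00453). Cxcl10, a chemokine that draws T cells, had 361, 141, 92.2 and 14.5 CPM in geriatric cells, against 2.12, 10.7, 4.14 and 57.0 CPM in young cells. Young replicate 4 stood above geriatric replicate 4, and the call was lost without geriatric replicate 1 or young replicate 1, 2 or 3 (log2 fold change 3.04 ± 0.97, edgeR adjusted p = 0.0319, and up to 0.126 with a library left out). Without geriatric replicate 1, 21 of the effectors were called higher, and no fit that left out 1 library called more than 37. Without the libraries with high Xist, 40 were called higher.

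Summed over the list, interferon-induced effectors reached 18150, 8252, 8095 and 5958 CPM in geriatric libraries, against 2038 to 2283 CPM in young libraries. Every geriatric library was thus above the young range, and replicate 1 was more than 2 times any other. Ifitm3 alone gave 10090, 3538, 5368 and 3720 CPM of the geriatric sums and averaged 1271 CPM in young libraries, so the sums lean on 1 gene. GTPases of the Irgm and Gbp families and the Ifitm genes have close copies, so the split of reads within each family is uncertain.

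**Figure D3:**
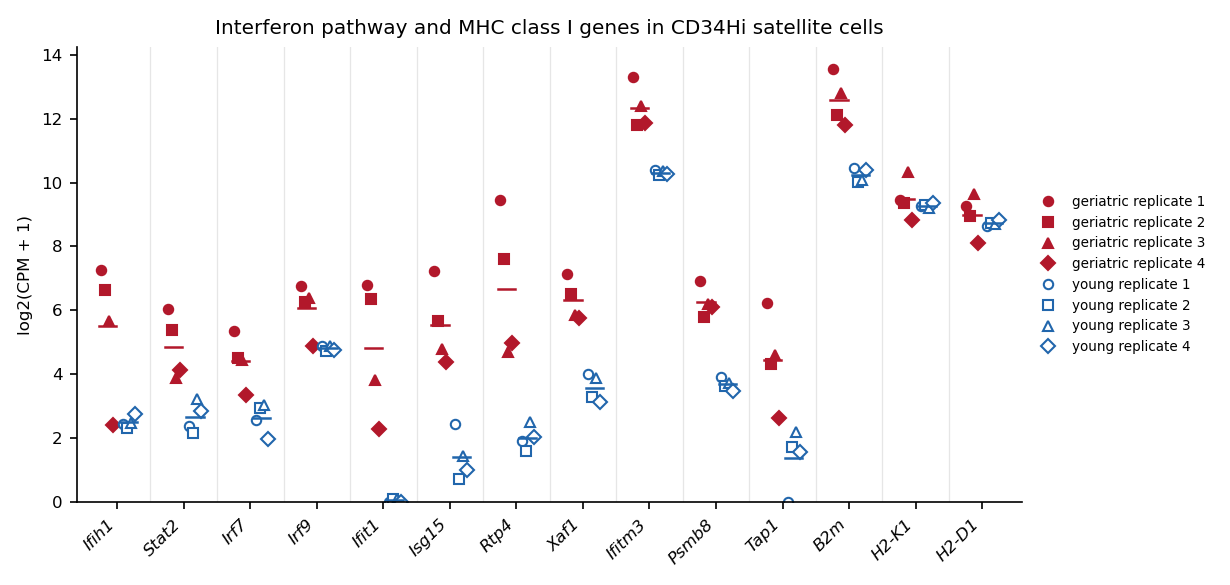
Level of 14 interferon pathway and MHC class I genes in each CD34Hi library, as log2(CPM + 1), geriatric (filled) left of young (open), with a bar at each group's mean. Geriatric replicate 1 was the highest for 12 of the 14 genes, and Ifih1, Irf9, H2-K1 and H2-D1 overlapped between groups.

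MHC class I presentation was higher in 9 of 22 measured genes and lower in 1, and the higher ones were the light chain, a transporter, immunoproteasome and activator subunits and 2 non-classical heavy chains. B2m, the class I light chain (chr2:122147686-122153083), had 12130, 4481, 7087 and 3556 CPM in geriatric cells, against 1418, 1039, 1073 and 1353 CPM in young cells, with no overlap between groups (log2 fold change 2.48 ± 0.39, edgeR adjusted p = 0.000617). Psmb8, a catalytic subunit of the immunoproteasome, had 119, 54.9, 73.2 and 68.3 CPM in geriatric cells, against 14.2, 11.4, 12.4 and 10.1 CPM in young cells (log2 fold change 2.72 ± 0.41, edgeR adjusted p = 0.000500). Psmb10, another such subunit, had 52.7, 20.7, 53.4 and 27.1 CPM in geriatric cells, against 7.41, 10.2, 11.1 and 8.34 CPM in young cells (log2 fold change 2.05 ± 0.38, edgeR adjusted p = 0.00174). Tap1, which carries peptides into the endoplasmic reticulum, had 73.7, 18.8, 23.2 and 5.17 CPM in geriatric cells, against 0, 2.29, 3.59 and 1.97 CPM in young cells (log2 fold change 3.897 ± 0.88, edgeR adjusted p = 0.00499). The groups were apart for all 3. The classical heavy chains showed no call. H2-K1 had 696, 661, 1289 and 457 CPM in geriatric cells, against 614, 625.5, 588 and 649.6 CPM in young cells (log2 fold change 0.33 ± 0.36, edgeR adjusted p = 0.535). H2-D1 had 614, 492, 804 and 275 CPM in geriatric cells, against 397, 427, 412.5 and 451 CPM in young cells, again with geriatric libraries on both sides of the young range (log2 fold change 0.37 ± 0.34, edgeR adjusted p = 0.448). Pdia3, the chaperone of the peptide-loading complex, was the only fall, at 214, 285, 348 and 347.5 CPM in geriatric cells, against 1025, 1007, 793 and 902 CPM in young cells (log2 fold change -1.64 ± 0.28, edgeR adjusted p = 0.000940). The count of higher members was 8 or 9 whichever library was left out. The count of lower members was 3 without geriatric replicate 3.

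Chemokines and inflammatory signalling genes were higher in 12 of 31 cases and lower in none, with a median log2 fold change of 1.68. Casp4 (caspase 11), which senses cytosolic lipopolysaccharide (chr9:5308828-5336783), had 996, 496, 231 and 274.5 CPM in geriatric cells, against 18.6, 25.7, 19.3 and 23.3 CPM in young cells (log2 fold change 4.52 ± 0.65, edgeR adjusted p = 0.000445). The lowest geriatric library was well over the highest young one. Ccl2, a chemokine that draws monocytes, had 4183, 841.5, 366 and 172.7 CPM in geriatric cells, against 7.11, 30.4, 24.5 and 139 CPM in young cells (log2 fold change 4.79 ± 1.39, edgeR adjusted p = 0.0202). Geriatric replicate 1 was the highest, and young replicate 4 was close to geriatric replicate 4. Il6 had 1098, 303, 89.1 and 8.84 CPM in geriatric cells, against 4.08, 22.1, 1.31 and 16.9 CPM in young cells (log2 fold change 5.07 ± 1.41, edgeR adjusted p = 0.0160). Geriatric replicate 4 lay within the young range for Il6. Nfkb1, the p105 and p50 subunit of NF-κB, had 936, 774, 634 and 215 CPM in geriatric cells, against 162, 201, 177.5 and 253 CPM in young cells (log2 fold change 1.69 ± 0.35, edgeR adjusted p = 0.00319). Ccl19, a chemokine that binds Ccr7, averaged 874 ± 544 CPM in geriatric cells and 130.5 ± 26.8 CPM in young cells (log2 fold change 2.74 ± 0.56, edgeR adjusted p = 0.00283). Ccl8 was at 357, 50.3, 14.3 and 5.76 CPM in geriatric libraries, against 1 count over all 4 young libraries (edgeR adjusted p = 0.00964). Without geriatric replicate 1, or without young replicate 1, 6 members were called higher in place of 12. Il6 lost its call in both of these fits, and Ccl2 without geriatric replicate 1 or young replicate 1, 2 or 3 (edgeR adjusted p up to 0.0657 and 0.0886).

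JAK-STAT transducers and cytokine receptors of satellite cells were higher in 3 of 15 cases (20%), against 13.2% of all genes tested, and lower in none. The 3 were Osmr, Stat3 and Lifr. Osmr, the oncostatin M receptor, had 525, 396, 187 and 249.6 CPM in geriatric cells, against 37.5, 78.2, 44.3 and 77.2 CPM in young cells (log2 fold change 2.52 ± 0.37, edgeR adjusted p = 0.000454). Stat3 had 608.5, 539.5, 295 and 235 CPM in geriatric cells, against 133.5, 146, 138 and 169 CPM in young cells (log2 fold change 1.52 ± 0.31, edgeR adjusted p = 0.00264). In both the groups were apart. Lifr, the receptor of leukaemia inhibitory factor, averaged 67.3 ± 45.02 CPM in geriatric cells and 22.04 ± 2.995 CPM in young cells (log2 fold change 1.61 ± 0.44, edgeR adjusted p = 0.0152). This call was lost without young replicate 1 or geriatric replicate 1 (edgeR adjusted p up to 0.0664). Of 11 measured complement genes 3 were higher (27.3%), among them C4b and C2. Both C4b and C2 lost their call when any of 6 of the 8 libraries was left out. H2-DMa, the peptide editor of MHC class II, was 1 of 3 class II genes measured. It had 18.3, 6.96, 6.64 and 1.59 CPM in geriatric cells, against 1.06, 0.573, 1.73 and 2.63 CPM in young cells (log2 fold change 2.47 ± 0.87, edgeR adjusted p = 0.0468). Its call was lost when any library but geriatric replicate 4 was left out.

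Markers of cells that the sort should have removed were measured beside these groups. Of 28 immune cell markers, 21 were too low to measure, and the summed level of the list was 79.99, 27.52, 49.42 and 37.26 CPM in geriatric libraries and 6.96 to 21.1 CPM in young libraries. Cd3e was at 0 in all 8 libraries, and Ptprc, which encodes CD45, averaged 1.73 ± 3.28 CPM in geriatric cells and 0.0173 ± 0.0345 CPM in young cells. The 2 immune markers called higher were neutrophil proteins. S100a8 had 20.2, 0, 3.03 and 0.894 CPM in geriatric cells, against 0.454, 0.0716, 0.0691 and 0 CPM in young cells (log2 fold change 5.38 ± 1.67, edgeR adjusted p = 0.0281). S100a9 averaged 4.51 ± 5.14 CPM in geriatric cells and 0.0823 ± 0.165 CPM in young cells (edgeR adjusted p = 0.0491), both highest in geriatric replicate 1 and at 0 in geriatric replicate 2. Fibroblast and fibro-adipogenic markers were higher in 6 of 21 measured cases and lower in none, and their sum was 10000, 3604, 2707 and 2097 CPM in geriatric libraries, against 1013 to 1164 CPM in young libraries. Ccl11, given below, was the largest part of this sum in geriatric replicate 1. Pdgfra, which defines fibro-adipogenic cells, averaged 0 ± 0 CPM in geriatric cells and 0.0378 ± 0.0756 CPM in young cells. Dcn, a matrix proteoglycan, had 1864, 519.9, 929.6 and 966 CPM in geriatric cells, against 99.5, 141, 64.1 and 59.6 CPM in young cells (log2 fold change 3.55 ± 0.97, edgeR adjusted p = 0.0146). Ly6a, which encodes Sca-1, had 65.3, 0, 97.3 and 0 CPM in geriatric cells, against 4.54, 0, 0 and 0 CPM in young cells (log2 fold change 5.32 ± 2.34, edgeR adjusted p = 0.107). Ccl11, a chemokine listed among fibroblast markers, had 6403, 1577, 454.1 and 163 CPM in geriatric cells, against 31.2, 73.7, 100.7 and 139.7 CPM in young cells (log2 fold change 4.64 ± 1.38, edgeR adjusted p = 0.0229). This call was lost without geriatric replicate 1 or young replicate 1, 2 or 3 (up to 0.0997). S100a8 and S100a9 lost theirs without geriatric replicate 1 and in 3 or more of the other fits that left out a library (up to 0.167 and 0.128). Without young replicate 1, 2 or 3, 3 of the fibroblast markers were called higher.

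Endothelial markers were called in 0 of 11 cases by edgeR and by DESeq2. Before adjustment 5 were higher at an edgeR p under 0.05, while 4302 of all 11710 genes tested had such a p in either direction. The summed endothelial levels were 580.6, 270.5, 134.2 and 137.9 CPM in geriatric libraries and 88.1 to 134.6 CPM in young libraries. Without the libraries with high Xist, edgeR called 3 endothelial markers higher and 1 lower. Pericyte and smooth muscle markers were higher in 5 of 11 cases, or in 3 without young replicate 2 or 3. Their sums were 715.6, 943.5, 931.3 and 816 CPM in geriatric libraries and 556.9 to 649.9 CPM in young libraries. Tagln, an actin-binding protein of smooth muscle, had 199, 326, 177 and 192 CPM in geriatric cells, against 54.7, 27.6, 30.1 and 38.8 CPM in young cells (log2 fold change 2.57 ± 0.40, edgeR adjusted p = 0.000617). The defining Rgs5 averaged 0.532 ± 0.617 CPM in geriatric cells and 0.418 ± 0.412 CPM in young cells, and Myh11, also defining, averaged 0.0973 ± 0.117 CPM in geriatric cells and 0.216 ± 0.363 CPM in young cells. Schwann cell markers were higher in 3 of 10 cases, against 13.2% of all genes tested. Their sums were 662.4, 615.9, 275.3 and 126.6 CPM in geriatric libraries and 66.2 to 105.3 CPM in young libraries. Sox10, which defines that lineage, was at 0 in all 8. Of 16 measured mature myofibre genes, edgeR called 0, with 2 higher before adjustment, and DESeq2 called 1, and red blood cell globins were not measurable. The summed immune, fibroblast, endothelial and Schwann levels were highest in geriatric replicate 1. Among geriatric libraries the pericyte and smooth muscle sum was lowest in that replicate, and the myofibre sum was highest in replicate 2 (289.1 CPM). Geriatric replicate 1 was also the highest for 29 of the 34 interferon-induced effectors and 10 of the 12 chemokine and inflammatory genes called higher. The part of such cells in those results was not tested.

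Genes that define satellite cells were all detected in both groups, beside the markers of other cells given above. Of these 12, 5 were higher and 1 lower in geriatric cells, and 2 were lower without geriatric replicate 3. Cd34 itself (chr1:194938819-194961279) had 197.5, 365, 155 and 134 CPM in geriatric cells, against 38.7, 63.3, 69.1 and 70.6 CPM in young cells, with no overlap (log2 fold change 1.82 ± 0.38, edgeR adjusted p = 0.00307). Both groups had been sorted for high CD34 protein. Cdh15, M-cadherin, which joins the cell to its fibre, had 97.2, 89.2, 29.96 and 27.8 CPM in geriatric cells, against 13.3, 7.59, 13.9 and 18.5 CPM in young cells (log2 fold change 2.20 ± 0.51, edgeR adjusted p = 0.00602). Fgfr4 had 53.6, 88.4, 26.3 and 22.3 CPM in geriatric cells, against 7.56, 9.80, 7.32 and 14.04 CPM in young cells (log2 fold change 2.30 ± 0.51, edgeR adjusted p = 0.00476). Calcr, the calcitonin receptor that holds satellite cells in quiescence, had 228, 342, 120.3 and 54.7 CPM in geriatric cells, against 57.0, 72.99, 84.4 and 78.7 CPM in young cells (log2 fold change 1.34 ± 0.41, edgeR adjusted p = 0.0241). Geriatric replicate 4 was below the young libraries, and the call was lost without geriatric replicate 1 or 2 or young replicate 1, 2 or 4 (up to 0.110). Pax7, the transcription factor that defines the lineage, had 19.8, 58.3, 17.5 and 26.1 CPM in geriatric cells, against 17.4, 14.3, 22.1 and 16.02 CPM in young cells, and only geriatric replicate 2 stood out (log2 fold change 0.80 ± 0.47, edgeR adjusted p = 0.228). With Xist as a second term the log2 fold change of Pax7 was 1.26 and it was called higher (edgeR adjusted p = 0.0336). Itga7, the integrin of the sort, had 64.4, 57.5, 120.5 and 79.1 CPM in geriatric cells, against 72.1, 74.1, 81.7 and 75.5 CPM in young cells (log2 fold change 0.08 ± 0.40, edgeR adjusted p = 0.898). Vcam1 and Sdc4 also gave no call, at edgeR adjusted p-values of 0.293 and 0.156.

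Quiescence-associated genes were higher in 10 of 44 cases and lower in 6, against 13.2% and 10.3% of all genes tested. Asb5, a muscle gene enriched in quiescent satellite cells (chr8:54529580-54587842), had 6894, 9818, 5540 and 6071 CPM in geriatric cells, against 1431, 1060, 1144 and 1256 CPM in young cells, a rise of like size in all 4 geriatric libraries (log2 fold change 2.53 ± 0.32, edgeR adjusted p = 0.000341). Cav1, caveolin 1, had 461, 1023, 1103 and 947 CPM in geriatric cells, against 4162, 3084, 3312 and 4067 CPM in young cells, with the groups apart (log2 fold change -2.05 ± 0.30, edgeR adjusted p = 0.000454). Spry1, the Sprouty that keeps satellite cells quiescent by damping growth factor signals (chr3:37639947-37644598), had 118, 139.7, 228 and 103 CPM in geriatric cells, against 347, 456, 473 and 505 CPM in young cells (log2 fold change -1.60 ± 0.33, edgeR adjusted p = 0.00323). Every geriatric library was under every young library for Spry1. Pdk4, which restrains pyruvate oxidation, averaged 142 ± 30.7 CPM in geriatric cells and 289.9 ± 59.3 CPM in young cells (log2 fold change -1.03 ± 0.25, edgeR adjusted p = 0.00731). The count of lower members was 3 when young replicate 2, 3 or 4, or geriatric replicate 1 or 4, was left out.

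The Notch pathway was higher in 6 of 25 measured genes and lower in 2, while its median log2 fold change was -0.18. The higher genes were receptors, a ligand and nuclear partners. Notch3 (chr17:32120820-32166852) had 137, 103, 63.6 and 46.2 CPM in geriatric cells, against 16.03, 10.8, 15.8 and 14.9 CPM in young cells (log2 fold change 2.61 ± 0.36, edgeR adjusted p = 0.000439). Notch1 had 99.4, 78.2, 51.5 and 26.5 CPM in geriatric cells, against 22.98, 25.1, 22.2 and 23.9 CPM in young cells (log2 fold change 1.44 ± 0.35, edgeR adjusted p = 0.00760). The groups did not overlap for either receptor, and geriatric replicate 4 was the lowest of its group in both. Notch2 averaged 35.4 ± 16.2 CPM in geriatric cells and 14.2 ± 4.10 CPM in young cells (log2 fold change 1.31 ± 0.41, edgeR adjusted p = 0.0286). This call was lost when any library but geriatric replicate 3 or 4 was left out. Rbpj, the DNA-binding partner of Notch, averaged 225 ± 70.8 CPM in geriatric cells and 89.7 ± 8.77 CPM in young cells (log2 fold change 1.33 ± 0.26, edgeR adjusted p = 0.00203). Ncstn, a part of the γ-secretase that releases the active Notch fragment, was called lower. It averaged 18.3 ± 13.6 CPM in geriatric cells and 54.7 ± 11.5 CPM in young cells (log2 fold change -1.59 ± 0.53, edgeR adjusted p = 0.0394). Ncstn kept its call only without geriatric replicate 2 or young replicate 1 (edgeR adjusted p up to 0.0925 in the other fits that left out a library). The target genes Heyl and Hes1 gave no call with all libraries in edgeR. Heyl had 62.96, 35.8, 9.79 and 14.4 CPM in geriatric cells, against 66.8, 58.04, 94.8 and 66.5 CPM in young cells (log2 fold change -1.22 ± 0.62, edgeR adjusted p = 0.162). Hes1 had 59.2, 22.3, 20.1 and 27.8 CPM in geriatric cells, against 14.7, 8.52, 17.1 and 16.02 CPM in young cells (log2 fold change 1.201 ± 0.49, edgeR adjusted p = 0.0852). Hes1 was called higher without the libraries with high Xist (edgeR adjusted p = 0.00746), with Xist as a second term (0.00210) and with DESeq2. The count of lower members was 1 in 6 of the 8 fits that left out a library.

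**Figure D4:**
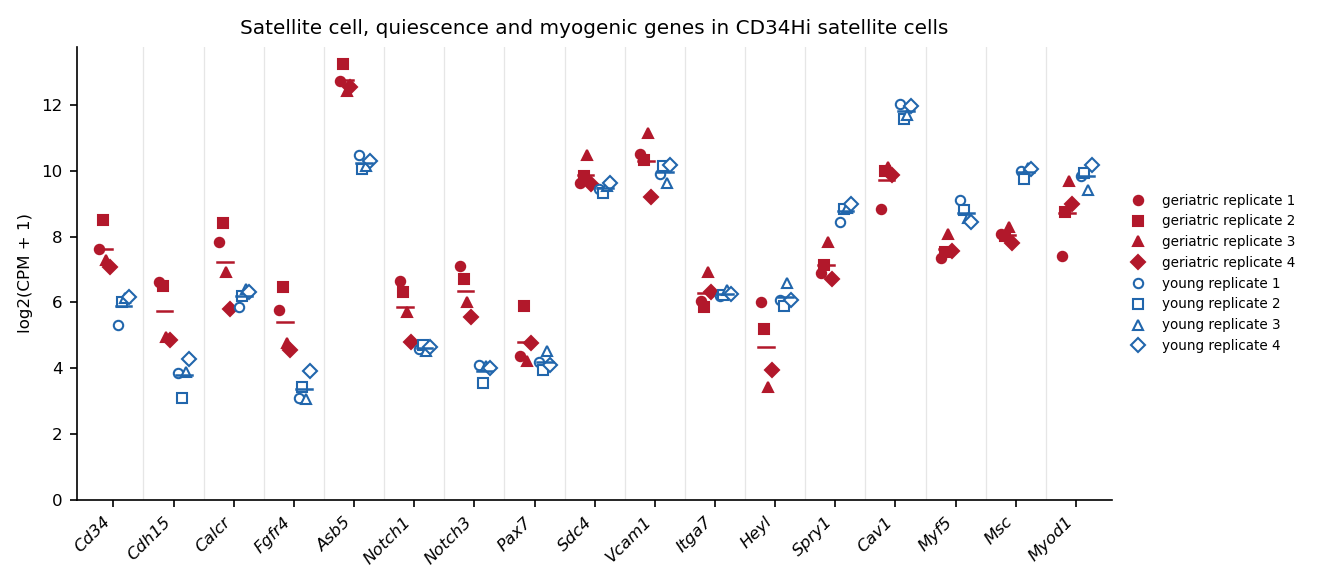
Level of 17 satellite cell, quiescence and myogenic genes in each CD34Hi library, as log2(CPM + 1), geriatric (filled) left of young (open), with a bar at each group's mean. Cd34, Asb5 and Notch3 were higher and Spry1, Cav1, Myf5 and Msc lower in all 4 geriatric libraries, while Pax7, Vcam1 and Itga7 were among those that overlapped.

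Myogenic commitment genes were higher in 8 of 34 measured cases (23.5%) and lower in 2 (5.9%), against 13.2% and 10.3% of all genes tested. Msc (musculin), a repressor of muscle differentiation, had 270.4, 256, 314 and 225 CPM in geriatric cells, against 1026, 859, 1088 and 1061 CPM in young cells and fell to a like level in each geriatric library (log2 fold change -1.92 ± 0.24, edgeR adjusted p = 0.000327). Myf5, the earliest myogenic regulatory factor, had 163, 184, 267 and 189 CPM in geriatric cells, against 554, 449, 377 and 345 CPM in young cells, again with no overlap (log2 fold change -1.10 ± 0.28, edgeR adjusted p = 0.0104). Myod1, which drives commitment, had 168, 432, 833 and 511 CPM in geriatric cells, against 918.5, 978, 678 and 1152 CPM in young cells (log2 fold change -0.94 ± 0.40, edgeR adjusted p = 0.0962). Geriatric replicate 3 lay within the young range, and there was no call with all libraries. The log2 fold change of Myod1 was -1.33 without geriatric replicate 3 (edgeR adjusted p = 0.0268) and -1.69 without the libraries with high Xist (edgeR adjusted p = 0.00104), both called lower. The call was also made with Xist as a second term and with limma voom. Myog, which marks differentiation, was at or near 0 in all 8 libraries. Among the higher genes, Dag1 (dystroglycan) averaged 315 ± 105.5 CPM in geriatric cells and 89.8 ± 22.2 CPM in young cells (log2 fold change 1.81 ± 0.28, edgeR adjusted p = 0.000638). Mef2a averaged 116 ± 21.2 CPM in geriatric cells and 43.8 ± 7.89 CPM in young cells (log2 fold change 1.41 ± 0.27, edgeR adjusted p = 0.00178). The count of higher members was 5 without any of the young libraries or without geriatric replicate 2.

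Cell cycle genes were lower in 9 of 37 cases and higher in 4, against 10.3% and 13.2% of all genes tested, with a median log2 fold change of -0.71. Cdk4, the G1 kinase, had 107, 142, 153 and 166 CPM in geriatric cells, against 354, 313.5, 343 and 294 CPM in young cells (log2 fold change -1.198 ± 0.20, edgeR adjusted p = 0.00100). Mcm6, a subunit of the replicative helicase, had 7.97, 13.6, 6.41 and 7.06 CPM in geriatric cells, against 54.6, 60.6, 40.3 and 76.7 CPM in young cells (log2 fold change -2.73 ± 0.52, edgeR adjusted p = 0.00188). Mcm7 averaged 16.4 ± 11.3 CPM in geriatric cells and 96.8 ± 13.1 CPM in young cells (log2 fold change -2.56 ± 0.49, edgeR adjusted p = 0.00203). The groups were apart for all 3. Top2a, a topoisomerase of dividing cells, was also called lower with 0.156, 0.162, 0.350 and 1.49 CPM in geriatric cells, against 1.51, 3.15, 1.31 and 55.2 CPM in young cells (log2 fold change -4.73 ± 1.64, edgeR adjusted p = 0.0445). Its call was lost without young replicate 4, the only library over 4 CPM, and in 4 of the other fits that left out a library (edgeR adjusted p up to 0.409). Without young replicate 4 the count of lower members was 4, and without geriatric replicate 2 it was 5. Of the inhibitors, Cdkn1a (p21) had 280.1, 408, 322 and 213 CPM in geriatric cells, against 116, 96.5, 128.5 and 156 CPM in young cells (log2 fold change 1.30 ± 0.25, edgeR adjusted p = 0.00210). Cdkn2c (p18) had 65.3, 94.0, 29.3 and 44.02 CPM in geriatric cells, against 13, 7.73, 10.6 and 12.1 CPM in young cells (log2 fold change 2.42 ± 0.52, edgeR adjusted p = 0.00385). Every geriatric library was above every young library for both. Cdkn1b (p27) had 5.78, 16.4, 14.9 and 14.3 CPM in geriatric cells, against 8.32, 6.30, 11.7 and 6.14 CPM in young cells and no call (log2 fold change 0.66 ± 0.44, edgeR adjusted p = 0.286). Cdkn2a, which encodes p16 and p19 and is known to rise in geriatric satellite cells, was too low to test, at 0, 0, 0 and 0.894 CPM in geriatric cells, against 0, 0, 0 and 0.219 CPM in young cells.

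Senescence, p53 and apoptosis genes were higher in 9 of 40 cases (22.5%) and lower in 5 (12.5%), against 13.2% and 10.3% of all genes tested. Fas, the death receptor (chr19:34290666-34327772), had 799.6, 561, 167 and 260.5 CPM in geriatric cells, against 10.3, 28.5, 23.7 and 36.3 CPM in young cells, with the geriatric libraries far above the young range (log2 fold change 4.17 ± 0.60, edgeR adjusted p = 0.000454). Igfbp5, an IGF-binding protein, had 221, 472, 157 and 66.6 CPM in geriatric cells, against 40.5, 30.7, 21.2 and 31.7 CPM in young cells (log2 fold change 2.89 ± 0.52, edgeR adjusted p = 0.00145). Timp2, an inhibitor of matrix proteases, averaged 227 ± 47.2 CPM in geriatric cells and 99.1 ± 10.2 CPM in young cells (log2 fold change 1.197 ± 0.23, edgeR adjusted p = 0.00179). In the other direction, Trp53 had 62.5, 102, 182.5 and 94.8 CPM in geriatric cells, against 364, 394, 347 and 349 CPM in young cells (log2 fold change -1.72 ± 0.38, edgeR adjusted p = 0.00437). Bid is given above. The count of lower members was 3 without young replicate 3.

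FoxO factors and their targets were higher in 13 of 43 measured cases (30.2%) and lower in 4 (9.3%), against 13.2% and 10.3% of all genes tested. The factors themselves gave no call. Foxo1 had 37.5, 38.2, 24.9 and 25.04 CPM in geriatric cells, against 34.5, 28.7, 31.4 and 35.3 CPM in young cells (log2 fold change -0.05 ± 0.29, edgeR adjusted p = 0.919). Foxo3 was at or under 1.98 CPM in every library. Klf4, a transcription factor linked to growth arrest, had 527.5, 375, 322 and 135 CPM in geriatric cells, against 46.9, 29.2, 66.8 and 59.8 CPM in young cells (log2 fold change 2.75 ± 0.45, edgeR adjusted p = 0.000827). Sod1, the cytosolic superoxide dismutase, averaged 235.5 ± 58.1 CPM in geriatric cells and 104 ± 9.38 CPM in young cells (log2 fold change 1.18 ± 0.25, edgeR adjusted p = 0.00364). Nupr1, a stress-induced nuclear protein, averaged 208.5 ± 66.4 CPM in geriatric cells and 70.6 ± 18.1 CPM in young cells (log2 fold change 1.56 ± 0.33, edgeR adjusted p = 0.00335). Txnip, the inhibitor of thioredoxin, went the other way with 20.3, 40.3, 177 and 142 CPM in geriatric cells, against 682, 543, 811.5 and 613 CPM in young cells (log2 fold change -2.80 ± 0.67, edgeR adjusted p = 0.00717). The count of higher members fell below 9 when any young library or geriatric replicate 1 was left out, to 4 without young replicate 2. Of 38 IGF, PI3K, Akt and mTOR genes, 8 were higher and 1 lower. Igf1r had 93.7, 67.3, 43.7 and 59.2 CPM in geriatric cells, against 11.2, 19.5, 19.7 and 23.9 CPM in young cells (log2 fold change 1.83 ± 0.32, edgeR adjusted p = 0.00111). Igf1 averaged 71.1 ± 23.3 CPM in geriatric cells and 15.9 ± 5.44 CPM in young cells (log2 fold change 2.16 ± 0.47, edgeR adjusted p = 0.00393). The lower gene was Akt1 with 3.75, 22.01, 39.5 and 24.6 CPM in geriatric cells, against 90.4, 138, 149.5 and 103 CPM in young cells (log2 fold change -2.41 ± 0.61, edgeR adjusted p = 0.00903). The groups were apart for all of them, and 5 members were called higher without young replicate 2 or 4. The lower count was 2 without geriatric replicate 1 or 4.

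Feedback genes of receptor tyrosine kinases were higher in 3 of 25 cases and lower in 3, close to the shares over all genes, but 5 were lower without geriatric replicate 4 and 7 without the libraries with high Xist. Spry2 and Spred1 rose while Spry1 fell. Spry2 had 128, 38.4, 48.4 and 61.3 CPM in geriatric cells, against 25.7, 22.3, 18.8 and 24.02 CPM in young cells (log2 fold change 1.60 ± 0.38, edgeR adjusted p = 0.00697). Spred1 averaged 174 ± 62.3 CPM in geriatric cells and 71.8 ± 10.7 CPM in young cells (log2 fold change 1.28 ± 0.28, edgeR adjusted p = 0.00408). TGF-β and BMP genes were higher in 11 of 34 cases and lower in 2, though 0 or 1 was lower in each fit that left out a library. Tgfbr3 (betaglycan), a co-receptor, had 436, 380.4, 178.5 and 160.3 CPM in geriatric cells, against 75.3, 61.2, 103 and 77.9 CPM in young cells (log2 fold change 1.86 ± 0.38, edgeR adjusted p = 0.00283). Ski, a repressor of Smad signalling, averaged 70.2 ± 24.2 CPM in geriatric cells and 16.3 ± 2.38 CPM in young cells (log2 fold change 2.11 ± 0.37, edgeR adjusted p = 0.00127). Bmpr2 averaged 310.5 ± 53.2 CPM in geriatric cells and 128.6 ± 22.5 CPM in young cells (log2 fold change 1.27 ± 0.24, edgeR adjusted p = 0.00180). Wnt pathway genes, with 3 higher and 4 lower of 29, stayed near the background. Sfrp4, a secreted Wnt antagonist, averaged 57.5 ± 32.2 CPM in geriatric cells and 2.62 ± 0.553 CPM in young cells (log2 fold change 4.44 ± 1.05, edgeR adjusted p = 0.00668). Without young replicate 2 no Wnt gene was called lower, and without geriatric replicate 1 there were 2.

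Extracellular matrix and adhesion genes were higher in 12 of 46 cases (26.1%) and lower in 4 (8.7%), against 13.2% and 10.3% of all genes tested. Thbs2, thrombospondin 2, had 389.5, 413, 320.1 and 246 CPM in geriatric cells, against 129.3, 95.5, 131 and 101.4 CPM in young cells (log2 fold change 1.58 ± 0.32, edgeR adjusted p = 0.00261). The lower genes were Mmp2, Sparc, Tnc and Itgb1. Between 10 and 13 members were called higher and 1 to 3 lower whichever library was left out, and 20 were higher without the libraries with high Xist. Dcn, Lox and Thbs1 of this list are also made by fibroblasts, whose summed marker levels are given above.

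Cytosolic ribosomal proteins were higher in 62 of 76 measured genes and lower in none, with a median log2 fold change of 1.21. The groups did not overlap for 64 of the 76, geriatric cells being higher, against 14.1% of all genes tested. Rps19, a protein of the small subunit (chr7:24884371-24889806), had 5148, 2551, 3799 and 5972 CPM in geriatric cells, against 1163, 1082, 1176 and 1108 CPM in young cells (log2 fold change 1.95 ± 0.34, edgeR adjusted p = 0.00130). Rps21 had 582, 325, 460.3 and 641 CPM in geriatric cells, against 155, 134, 156 and 120.4 CPM in young cells (log2 fold change 1.83 ± 0.30, edgeR adjusted p = 0.000827). Together the list made up 120000, 81610, 124300 and 176400 CPM in geriatric libraries, against 54190 to 59620 CPM in young libraries. Within the geriatric group, replicate 4 was the highest for 61 of the 62 genes and replicate 2 the lowest for all 62. For interferon-induced effectors replicate 1 was the highest for 29 of 34 genes and replicate 4 the lowest for 21. Between 52 and 67 members were called higher whichever library was left out.

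Nuclear-encoded subunits of oxidative phosphorylation were higher in 48 of 73 cases and lower in 7. Ndufa13, a small subunit of complex I (chr8:69894180-69902558), had 459.5, 294, 271 and 320.3 CPM in geriatric cells, against 75.3, 74.9, 73.2 and 74.6 CPM in young cells (log2 fold change 2.174 ± 0.32, edgeR adjusted p = 0.000468). Ndufv3 averaged 133 ± 41.1 CPM in geriatric cells and 22.8 ± 6.11 CPM in young cells (log2 fold change 2.55 ± 0.40, edgeR adjusted p = 0.000617). Ndufb9 averaged 483 ± 100 CPM in geriatric cells and 119 ± 15.5 CPM in young cells (log2 fold change 2.02 ± 0.32, edgeR adjusted p = 0.000667), both of complex I as well. The lower genes were Atp5b, Atp5a1, Ndufs1, Cyc1, Sdhd, Uqcrc1 and Uqcrc2. Atp5b, the catalytic subunit of ATP synthase, had 509, 931, 1152 and 953 CPM in geriatric cells, against 2311, 2274, 2230 and 2123 CPM in young cells (log2 fold change -1.33 ± 0.32, edgeR adjusted p = 0.00711). The count of lower members was 2 or 3 when any library but geriatric replicate 3 or 4 was left out.

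Transcript length was set beside these 2 lists. Among genes in neither list nor the interferon lists, the 474 whose longest annotated transcript was under 1000 bases had a median log2 fold change of 1.07, and 32.1% were higher and 0.6% lower. The median was 0.07 for 1000 to 2000 bases, -0.29 for 2000 to 3000, -0.22 for 3000 to 4000, -0.04 for 4000 to 6000 and 0.19 for over 6000. Ribosomal proteins had a median longest transcript of 1114.5 bases and oxidative phosphorylation genes one of 1231 bases, against 3396 over all genes tested. Both list medians lie in the class of 1000 to 2000 bases, but members lie in other classes too. Rps21 (481 bases) and Ndufb9 (704 bases) were under 1000 bases, and Rps19 (2657 bases) was over 2000, so 1 class does not stand for a list. The part of transcript length in the rise of the 2 lists was not tested. In the adult cells of the second experiment, described below, the same 474-gene class of short transcripts had a median of -0.08 against young cells.

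**Figure D5:**
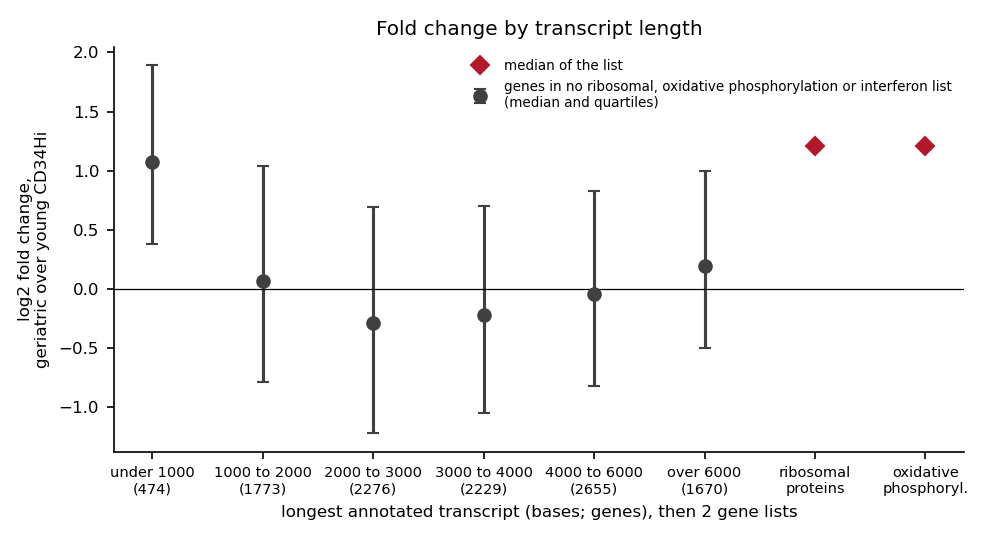
Median log2 fold change of geriatric over young CD34Hi cells by length of the longest annotated transcript, with quartiles as bars, beside the medians of ribosomal proteins and oxidative phosphorylation genes. The shortest class stood at 1.07 and all longer classes were between -0.29 and 0.19, against 1.21 for both lists. The median lengths of the 2 lists were 1114.5 and 1231 bases, with members in several length classes, and the part of length was not tested.

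Glycolysis genes were lower in 7 of 20 measured cases and higher in 2. Pkm, pyruvate kinase, had 145.5, 203.1, 233 and 189.5 CPM in geriatric cells, against 608, 524, 599 and 501 CPM in young cells (log2 fold change -1.53 ± 0.34, edgeR adjusted p = 0.00431). Pgam1, phosphoglycerate mutase, had 141, 233, 431 and 378 CPM in geriatric cells, against 809, 805.5, 659 and 858.5 CPM in young cells (log2 fold change -1.40 ± 0.32, edgeR adjusted p = 0.00499). Gpi1, glucose phosphate isomerase, averaged 89.8 ± 28.2 CPM in geriatric cells and 195 ± 22.2 CPM in young cells (log2 fold change -1.12 ± 0.24, edgeR adjusted p = 0.00361). The 2 higher genes were Hk2 and Ldhb. The groups were apart for Pkm and Pgam1, and between 5 and 7 members were called lower whichever library was left out. Constitutive proteasome subunits were lower in 6 of 33 cases (18.2%) and higher in 2 (6.1%), against 10.3% and 13.2% of all genes tested. Psmd2, a scaffold of the regulatory particle, had 79.7, 128.7, 121 and 126 CPM in geriatric cells, against 500.3, 522, 495 and 445 CPM in young cells (log2 fold change -2.11 ± 0.35, edgeR adjusted p = 0.000918). Psmd1 averaged 179 ± 73.5 CPM in geriatric cells and 501 ± 51.7 CPM in young cells (log2 fold change -1.48 ± 0.28, edgeR adjusted p = 0.00188). The count of lower subunits was 3 without young replicate 1, 2 or 4 or geriatric replicate 2, 14 without geriatric replicate 4 and 20 without the libraries with high Xist. The count of higher subunits was 0 in 7 of the 8 fits that left out a library.

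RNA processing factors were lower in 17 of 82 measured cases (20.7%) and higher in 10 (12.2%), against 10.3% and 13.2% of all genes tested. Hnrnpm had 104, 149, 135 and 135 CPM in geriatric cells, against 314, 274, 298 and 231.5 CPM in young cells (log2 fold change -1.10 ± 0.18, edgeR adjusted p = 0.000853). Ddx17, a helicase that works with Myod1, had 246, 251, 255 and 229.7 CPM in geriatric cells, against 106, 111, 111 and 112 CPM in young cells (log2 fold change 1.16 ± 0.21, edgeR adjusted p = 0.00165), with little spread in either group. Without geriatric replicate 1 the lower members numbered 10, without young replicate 2 they numbered 11, and without the libraries with high Xist 40. Chromatin regulators were higher in 6 of 47 cases and lower in 6, near the background. Ehmt1, a histone methyltransferase of silent chromatin, had 6.87, 13.9, 24.5 and 16.1 CPM in geriatric cells, against 66.1, 54.8, 61.3 and 57.0 CPM in young cells (log2 fold change -1.96 ± 0.36, edgeR adjusted p = 0.00170). Kdm6b, a histone demethylase, had 225, 167, 116 and 61.9 CPM in geriatric cells, against 51.1, 34.99, 50.6 and 36.2 CPM in young cells (log2 fold change 1.72 ± 0.39, edgeR adjusted p = 0.00500). Hdac4 averaged 28.4 ± 8.48 CPM in geriatric cells and 81.6 ± 20.3 CPM in young cells (log2 fold change -1.53 ± 0.35, edgeR adjusted p = 0.00553). Of the chromatin genes, 3 were called higher without young replicate 1 or without geriatric replicate 1, and 15 were lower without the libraries with high Xist.

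Antioxidant and glutathione genes were higher in 16 of 39 cases and lower in 3. Mt1 and Mt2, the metallothioneins that bind zinc and copper, both rose. Mt1 (chr8:94179082-94180327) had 45110, 18060, 11680 and 11070 CPM in geriatric cells, against 2144, 1593, 1858 and 2784 CPM in young cells, with geriatric replicate 1 the highest (log2 fold change 3.36 ± 0.58, edgeR adjusted p = 0.00114). Mt2 had 19630, 9983, 6896 and 6050 CPM in geriatric cells, against 784, 1022, 1045 and 1672 CPM in young cells (log2 fold change 3.23 ± 0.55, edgeR adjusted p = 0.00100). Gpx4, the peroxidase that protects membrane lipids, averaged 762 ± 134 CPM in geriatric cells and 287 ± 24.7 CPM in young cells (log2 fold change 1.41 ± 0.26, edgeR adjusted p = 0.00177). Gstm5, a glutathione transferase, averaged 169 ± 43.9 CPM in geriatric cells and 51.1 ± 7.36 CPM in young cells (log2 fold change 1.72 ± 0.33, edgeR adjusted p = 0.00195), though Gstm genes are close copies. The lower genes were Prdx6, Gss and Gsr. Between 13 and 17 members were called higher whichever library was left out, while 1 was lower without geriatric replicate 1 and 5 without geriatric replicate 4.

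Immediate early and dissociation-induced genes were higher in 17 of 47 cases and lower in 4. This group is known to respond to the enzyme digestion that frees the cells. Fosl2, a partner of Jun, had 575, 541, 247 and 204.3 CPM in geriatric cells, against 46.1, 36.9, 59.2 and 54.2 CPM in young cells (log2 fold change 2.996 ± 0.47, edgeR adjusted p = 0.000617). Btg1, an antiproliferative factor, averaged 1760 ± 310.3 CPM in geriatric cells and 576 ± 131 CPM in young cells (log2 fold change 1.61 ± 0.27, edgeR adjusted p = 0.000848). Ier2 had 99.1, 149, 113 and 108 CPM in geriatric cells, against 332.5, 302, 443 and 251 CPM in young cells (log2 fold change -1.500 ± 0.24, edgeR adjusted p = 0.000629). Cyr61 had 60.6, 109, 90.6 and 169 CPM in geriatric cells, against 757, 468, 954.5 and 476 CPM in young cells (log2 fold change -2.63 ± 0.50, edgeR adjusted p = 0.00179), both lower in every geriatric library. Without young replicate 1, 2 or 4, or geriatric replicate 1 or 2, the higher members numbered 8 to 10. Heat shock and folding genes were higher in 10 of 27 cases and lower in 4. Hspd1, the mitochondrial chaperonin, had 214, 192, 441 and 370.3 CPM in geriatric cells, against 1069, 951, 941 and 952 CPM in young cells (log2 fold change -1.68 ± 0.32, edgeR adjusted p = 0.00179). Bag3, a co-chaperone of Hsp70, had 419, 553, 265 and 139.9 CPM in geriatric cells, against 103, 117, 119 and 117.5 CPM in young cells (log2 fold change 1.59 ± 0.36, edgeR adjusted p = 0.00521). The higher count was 3 to 6 when any library but geriatric replicate 3 or 4 was left out. The lower count was 2 without young replicate 2 or geriatric replicate 1.

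Lipid and cholesterol genes were higher in 9 of 40 cases (22.5%) and lower in 5 (12.5%), against 13.2% and 10.3% of all genes tested. Idi1, an isomerase of cholesterol synthesis, had 142.5, 570.3, 154 and 426 CPM in geriatric cells, against 37.5, 24.5, 27.8 and 30.5 CPM in young cells (log2 fold change 3.43 ± 0.57, edgeR adjusted p = 0.000899). Scd1, a fatty acid desaturase, had 95.2, 122.5, 79.7 and 129.3 CPM in geriatric cells, against 21.5, 26.7, 18.3 and 24.1 CPM in young cells (log2 fold change 2.24 ± 0.37, edgeR adjusted p = 0.000827). Angptl4, an inhibitor of lipoprotein lipase, had 116, 144.5, 153 and 167 CPM in geriatric cells, against 643, 834, 617 and 731 CPM in young cells (log2 fold change -2.28 ± 0.39, edgeR adjusted p = 0.00105). Pnpla2, the triglyceride lipase ATGL, had 19.4, 18.8, 46.4 and 18.9 CPM in geriatric cells, against 243, 306, 349 and 267 CPM in young cells (log2 fold change -3.49 ± 0.73, edgeR adjusted p = 0.00319). The groups were apart for each of these. Autophagy and lysosome genes were higher in 7 (19.4%) and lower in 7 (19.4%) of 36 cases. Gabarap, which coats autophagosomes, averaged 836 ± 147 CPM in geriatric cells and 279.8 ± 37.0 CPM in young cells (log2 fold change 1.58 ± 0.28, edgeR adjusted p = 0.00144). Atg3, the enzyme that attaches it to lipid, averaged 101.5 ± 24.8 CPM in geriatric cells and 217 ± 31.4 CPM in young cells (log2 fold change -1.10 ± 0.21, edgeR adjusted p = 0.00192). Clock genes were higher in 3 of 21 cases and lower in 2, near the 13.2% and 10.3% of all genes tested, and 1 was lower in 6 of the 8 fits that left out a library. Rora averaged 371 ± 152 CPM in geriatric cells and 165 ± 32.6 CPM in young cells (log2 fold change 1.17 ± 0.28, edgeR adjusted p = 0.00690). The autophagy counts were 3 to 5 higher and 4 to 8 lower whichever library was left out.

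CD34Lo cells, the fraction with less CD34 from the same experiment, were compared by age in the same fit, with 4 geriatric and 4 young libraries. There 926 genes were higher (7.91%) and 495 lower (4.23%) in geriatric cells. Of these, 783 were among the 1544 called higher in CD34Hi cells and 376 among the 1207 called lower, and 1 gene was called in opposite directions. The CD34Hi and CD34Lo libraries are different, but the labels do not say whether they came from the same mice. Interferon-induced effectors were higher in 24 cases in CD34Lo cells, with a median log2 fold change of 2.65, ribosomal proteins in 20 and oxidative phosphorylation genes in 20. Rtp4 averaged 204.7 ± 272 CPM in geriatric CD34Lo cells and 3.99 ± 1.38 CPM in young CD34Lo cells (log2 fold change 5.67 ± 1.16, edgeR adjusted p = 0.00656). Asb5 averaged 6202 ± 2964 CPM in geriatric CD34Lo cells and 1314 ± 104 CPM in young CD34Lo cells (log2 fold change 2.24 ± 0.32, edgeR adjusted p = 0.00120). Spry1 averaged 155 ± 83.3 CPM in geriatric CD34Lo cells and 347 ± 74.7 CPM in young CD34Lo cells (log2 fold change -1.16 ± 0.33, edgeR adjusted p = 0.0296). The difference between the 2 age effects was itself tested, and 0 genes (0%) passed the threshold in edgeR. Before adjustment 445 of 11710 had a p under 0.05, a smaller share than the 0.05 expected where no gene differs. DESeq2 called 10. Without the libraries with high Xist, 40 passed it in edgeR. With all 16 libraries, edgeR thus called no gene for an age effect that differed between the fractions. This does not show that the age effects were equal. Carm1 averaged 11.5 ± 16.1 CPM in geriatric CD34Lo cells and 27.97 ± 9.29 CPM in young CD34Lo cells (log2 fold change -1.27 ± 0.89, edgeR adjusted p = 0.375).

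Adult CD34Hi cells were compared with young CD34Hi cells in a second experiment, with 3 adult and 4 young libraries that are not those above. Of 12392 autosomal genes tested, 13 were higher (0.105%) and 12 lower (0.0968%) in adult cells. With 1 library left out there were 3 to 10 and 1 to 12. Leaving out any library but young replicate 2 for the higher genes, or young replicate 1 for the lower ones, moved the count by more than 1.5 times. Of the 1544 genes called higher in geriatric cells, 1520 were tested there, and 3 were higher and 4 lower in adult cells. Of the 1207 called lower, 1189 were tested and 0 were called in either direction. Rtp4 averaged 23.6 ± 8.50 CPM in adult cells and 23.3 ± 4.09 CPM in young cells (log2 fold change 0.02 ± 0.49, edgeR adjusted p = 0.998). Asb5 averaged 3877 ± 129.4 CPM in adult cells and 3308 ± 268 CPM in young cells (log2 fold change 0.23 ± 0.18, edgeR adjusted p = 0.836). Spry1 averaged 361.5 ± 34.9 CPM in adult cells and 289 ± 41.8 CPM in young cells (log2 fold change 0.32 ± 0.23, edgeR adjusted p = 0.811). Rps19 averaged 605 ± 66.4 CPM in adult cells and 690.3 ± 230.5 CPM in young cells (log2 fold change -0.19 ± 0.51, edgeR adjusted p = 0.988). Vcam1, the adhesion molecule, was called higher in adult cells, at 5753 ± 210.1 CPM in adult cells and 2895 ± 166 CPM in young cells (log2 fold change 0.99 ± 0.18, edgeR adjusted p = 0.0355). Igf1 was called lower, at 24.5 ± 7.60 CPM in adult cells and 60.2 ± 4.32 CPM in young cells (log2 fold change -1.29 ± 0.25, edgeR adjusted p = 0.0405). Both lost their calls whichever of the 7 libraries was left out (edgeR adjusted p of 0.0651 to 0.310), with log2 fold changes of 0.96 to 1.03 for Vcam1 and -1.54 to -1.08 for Igf1. DESeq2 called both (adjusted p = 0.000261 and 7.21e-05), as did edgeR on the CD34Hi libraries alone (0.000383 and 0.0148). The experiments were scaled separately. The young level of Asb5, Cd34 and Notch3 in the second, at 3308 ± 268 CPM, 229.9 ± 28.8 CPM and 136 ± 27.9 CPM, was above the young range of the first, and so was Rtp4. For Cd34 and Notch3 this young level was also above the geriatric mean of the first (212.8 and 87.5 CPM). For Asb5 and Rtp4 it was below that mean (7081 and 236.9 CPM). Young means of the second were above geriatric means of the first for Cdh15 (125.6 against 61.0 CPM), Fgfr4 (167.9 against 47.6 CPM) and Notch1 (174.8 against 63.9 CPM) too.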

How the data were processed

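The deposited tables give whole-number read counts per gene symbol for each library, which are the authors' raw counts. Reads were demultiplexed with bcl2fastq 2.17.1, trimmed with Trim Galore, aligned to mm10 with TopHat2 2.1.1 and counted with HTSeq or Partek 7.0, per the submitters' processing notes, which do not say which counter made which table. Strand was not marked, so reads of overlapping and antisense genes cannot be told apart, and reads of close copies may be split wrongly.

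From these counts, edgeR 4.0.16 in R 4.3.3 was run on the 16 libraries of the first experiment in 4 groups (filterByExpr with a minimum count of 10 and total of 15, TMM scaling, quasi-likelihood F-test), with Benjamini-Hochberg adjustment over all 12163 genes tested and a threshold of 0.05. Errors on log2 fold changes are standard errors and those on means are SDs over libraries. CPM values are TMM-scaled. The second experiment was fitted apart, with 15 libraries. Of 24421 symbols, GENCODE gave positions for 23376 and RefSeq for 948 (GRCm38). Genes of chromosomes X and Y and unplaced symbols stayed in the fit and were left out of counts. Alternatives were run with DESeq2 1.42.0, limma 3.58.1 voom, other scalings, no filter, other sets of libraries and Xist as a term. The fit was also run on simulated counts with the same spread in every group. Geriatric libraries were less alike than young ones, so that run does not speak to unequal spread.

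The genes named are the 12 largest rises and falls over 8 CPM with no overlap between groups, up to 4 members per list by p, and a set fixed by name. A few genes that this rule selects are not reported here. Akt1, Atp5b, Ccl2, Cdkn2c, Cyr61, Igtp, Il6, Itga7, Ly6a, Ncstn, Pnpla2, Top2a, Trp53 and Txnip were added after their values were seen, as were marker genes too low to test and names given without values. The gene lists and the libraries compared were chosen with earlier results of these data known.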

Additional observations from a re-analysis of the deposited data

Results flagged for a closer look

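In each group of 4 libraries of the 171 named genes, the gap of the highest or lowest library to its nearest neighbour was compared with the group's range. Of 342 groups, 27 passed Dixon's critical value at the 95% level, 14 in geriatric and 13 in young cells, where chance gives about 1 group in 20. In 7 of the 27, 1 library held a few counts and the other 3 had 0, a pattern that always passes, so the number of groups is not to be read against chance.

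Geriatric replicate 1 stood above its group for Ccl8 (357 CPM), Ccl2 (4183 CPM), Gbp7 (164 CPM), Thbs1 (212 CPM), Fbln2 (92.0 CPM) and S100a8 (20.2 CPM), and below it for Psmd2 (79.7 CPM). Geriatric replicate 2 stood above its group for Tagln (326 CPM) and C2 (4.86 CPM). Geriatric replicate 3 did so for Pnpla2 (46.4 CPM), and was the only geriatric library with Foxo3 (1.98 CPM). Geriatric replicate 4 did so for Dvl3 (1.69 CPM) and Top2a (1.49 CPM), and was the only geriatric library with Cdkn2a (0.894 CPM).

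Young replicate 1 stood above its group for Hspd1 (1069 CPM) and Atg3 (264 CPM), and below it for Bag3 (103 CPM) and Ncstn (37.5 CPM). It also held the most S100a8 (0.454 CPM) and was the only young library with Ly6a (4.54 CPM). Young replicate 2 was lowest for Rps12 (323 CPM) and the only young library with Ccl8 (0.0716 CPM). Young replicate 3 was the only one with Myog (0.0691 CPM). Young replicate 4 stood above its group for Cxcl10 (57.0 CPM) and Top2a (55.2 CPM), and was the only young library with Cdkn2a (0.219 CPM) or S100a9 (0.329 CPM).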

How the results depend on the processing

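Genes called in geriatric against young CD34Hi cells numbered 2751, and 1762 to 4894 over the alternatives. With 1 library left out, 1016 to 1626 were higher and 746 to 1362 lower. The lower genes numbered 2620 without the libraries with high Xist and 2265 with Xist as a second term, where 46.5% and 47.8% of called genes were higher, against 56.1% with all libraries. The median log2 fold change of all genes was -0.13 without those libraries and -0.22 with limma voom, against 0.02. Of 156 named genes past the threshold, 131 passed it under every alternative, 154 without the libraries with high Xist, and 0 changed direction. Most of these were named for a large change or a small p with all libraries, so they do not stand for all called genes. Of all 2751 called genes, 1750 were also called without young replicate 2 and 1819 without geriatric replicate 1. Genes with no call did: the log2 fold change of Foxo1 was 0.165 without the libraries with high Xist, 0.173 with the Xist term and -0.159 to 0.044 with 1 library left out, positive without geriatric replicate 3 or 4. That of Itga7 was -0.375 and -0.468 under these Xist settings and -0.183 to 0.211 with 1 library left out, and that of H2-K1 was -0.038 to 0.507, both negative without geriatric replicate 3. The causes were not tested.

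The difference between the age effects of the 2 fractions gave 0 genes in all 16 fits that left out a library, 10 with DESeq2 and 40 without the libraries with high Xist. In adult against young cells, DESeq2 called 53 higher and 138 lower, and a fit of the CD34Hi libraries alone called 64 and 127. With 1 library left out these were 3 to 10 and 1 to 12. The age comparison was not paired, because the labels give each library a number that geriatric and young libraries do not share. The labels do not say whether CD34Hi and CD34Lo libraries came from the same mice. Xist was at 50 CPM or more in geriatric replicates 3 and 4 of both fractions. The fits treated all 16 libraries as independent, so the test of the 2 age effects left out any such pairing. At these depths a gene with few counts, such as Cdkn2a, could not be tested.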

Other observations

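Young CD34Hi cells were sequenced in both experiments, which were scaled apart, so their levels can be set side by side but were not tested. For the 1247 genes that were called higher in geriatric cells with no overlap and were tested in the second experiment, the young mean of the second experiment was at or above the lowest geriatric value of the first for 367 genes (29.4%). It was within or below the young range of the first for 668 (53.6%) and in between for 212. For the 1135 genes called lower, it was at or below the highest geriatric value for 225 (19.8%) and within or above the young range for 627 (55.2%).

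The lists differed in this respect. For members called higher with no overlap, the young mean of the second experiment was set beside the lowest geriatric value of the first. It was at or above that value for 4 of 4 defining satellite cell markers, 7 of 8 quiescence-associated genes and 6 of 6 myogenic genes. The same held for 11 of 12 matrix genes, 16 of 22 interferon-induced effectors and 6 of 7 lipid genes. It held for 0 of 62 ribosomal proteins, 0 of 48 oxidative phosphorylation genes and 0 of 14 antioxidant genes. These members had been chosen for low values in the young libraries of the first experiment, so a higher young mean elsewhere is partly set by that choice. What separates the young libraries of the experiments was not tested.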
